A study of Mus musculus with 6 samples.

Results

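Collagens, matrix proteins and stellate cell genes were followed across 6 liver tumors of CMRtdT mice, in which an activated β-catenin is made in a share of hepatocytes. The 41 genes were taken by name, as a list of matrix and stroma genes, out of 35683 genes in the tables. They comprise 5 fibrillar collagens, 7 basement membrane collagens and laminins, 4 beaded filament and fibril-associated collagens, 9 glycoproteins, proteoglycans and elastic fiber proteins, 7 stellate cell and myofibroblast genes, 5 proteases and their inhibitors, and 4 crosslinking enzyme and TGF-beta genes. All 41 were detected in every tumor, and 33 averaged 1 TPM or more (a share of all transcripts scaled for transcript length).

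Fibrosis of the liver is built mainly by hepatic stellate cells, which store retinoids in the healthy organ and turn into contractile, collagen-secreting myofibroblasts after injury. Fibrillar collagens give the matrix its tensile strength, whereas collagen IV, laminins and nidogen form the thin sheets on which epithelium and endothelium rest. Matrix metalloproteinases and their inhibitors, together with crosslinking oxidases, set how quickly the deposit is turned over, and TGF-beta is the main cytokine that drives its synthesis.

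The 6 tumors came from 2 male mice, with 3 tumors each. Both mice carried 1 *Ctnnb1* allele whose exon 3 is removed by Cre, the *MUP-uPA* transgene, which injures hepatocytes, and a tdTomato reporter. High-fat feeding began at an age of 6 weeks, AAV8-TBG-Cre, which acts in hepatocytes, was injected at 8 weeks, and tumor excision followed 6.5 months after the injection. The only grouping is therefore the animal, tumors of 1 mouse share that animal, and neither uninvolved liver nor tumors without the *Ctnnb1* deletion were analysed here. The labels do not say where in the liver each tumor lay, and in a whole tumor fewer cells of a type and less RNA per cell cannot be told apart.

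The estimated counts of a tumor summed to between 19130532 and 27681766. Tumor 1 of mouse 1 stood apart from the other 5, with a Pearson r of log2(TPM + 1) against them of 0.519 to 0.538, while the other pairs of tumors had r of 0.949 to 0.989. Its hepatocyte markers were low, with 702 TPM of *Alb*, against 8348 to 16603 TPM elsewhere, and its *Ctnnb1* level was 821 TPM, against 91.0 to 180 TPM, a gene total that does not show the exon 3 deletion. Tumors 2 and 3 of mouse 1 were much closer to each other than any other pair, with a chi-square of their counts of 7.76 per degree of freedom, against 73.7 to 148 for the pairs of mouse 2. They differed beyond counting error, which does not show whether they are independent of each other. They were kept as 2 samples, as labeled, with the outcome of averaging them given beside the test.

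The 41 genes did not move as a block. In tumor 1 of mouse 1, the laminin chains *Lamb1* and *Lamc1*, versican, fibrillin 1, the protease *Mmp2*, the inhibitors *Timp2* and *Timp3*, and the myofibroblast genes *Acta2* and *Pdgfra* stood far above the other 5 tumors. *Col1a1*, *Col1a2*, *Col3a1*, *Col5a2*, decorin, lumican, *Col14a1*, fibronectin and the retinoid enzyme *Lrat* did not. Among the other 5 tumors, the 2 of mouse 1 and tumor 2 of mouse 2 held more of the stroma genes than tumors 1 and 3 of mouse 2. No gene of the list passed the test between the mice with all 6 tumors, and *Vcan* and *Lamb1* passed it without tumor 1 of mouse 1. These 2 calls rested on counting tumors 2 and 3 of mouse 1 as separate samples, and *Vcan* had only 5, 3 and 3 estimated counts in mouse 2.

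**Figure D1:**
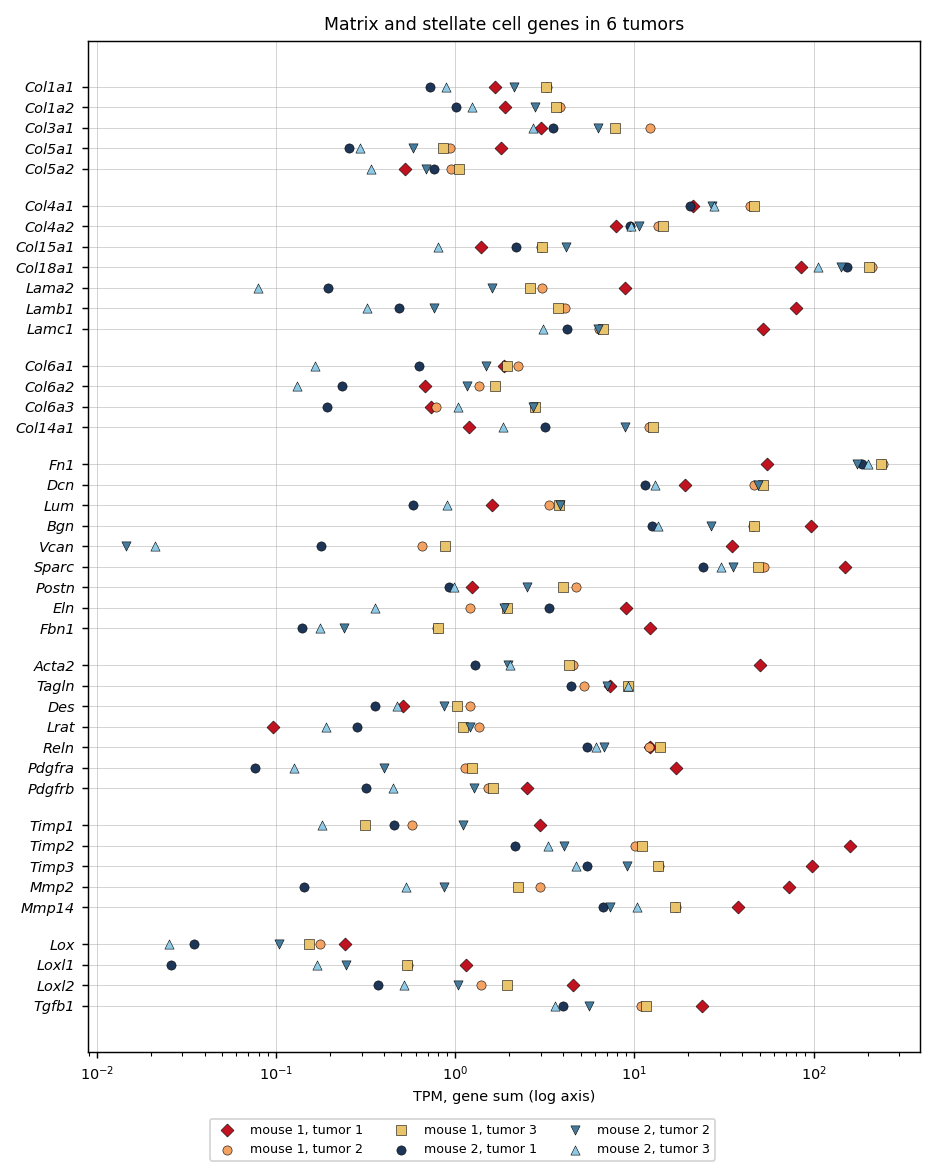
Levels of the 41 genes in each tumor, as TPM on a log axis, with 1 row per gene, grouped by role from fibrillar collagens at the top to crosslinking enzymes and TGF-beta at the bottom. Red diamonds, tumor 1 of mouse 1, lie to the right of all others for 21 genes (51.2%, beside 58.9% of all genes detected in any tumor). They lie to the left of all others for 5, and the share of all genes lowest there was not counted.

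Some transcripts show more than the gene total, and their sequences are given first. Cellular fibronectin differs from the plasma fibronectin of hepatocytes by inclusion of the extra domains A and B, each coded by a single exon of *Fn1* (chromosome 1, 71585473 to 71653280 on GRCm38). They are exons 33 and 25 of 46 in the longest transcript and are shown because their inclusion separated the tumors, in the sense direction, from the transcripts of GENCODE vM39.

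Extra domain A exon: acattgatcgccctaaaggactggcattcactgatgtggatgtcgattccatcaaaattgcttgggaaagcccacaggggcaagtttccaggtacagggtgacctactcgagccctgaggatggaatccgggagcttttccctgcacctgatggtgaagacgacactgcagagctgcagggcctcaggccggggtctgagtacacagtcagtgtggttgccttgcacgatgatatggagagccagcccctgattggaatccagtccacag
Extra domain B exon: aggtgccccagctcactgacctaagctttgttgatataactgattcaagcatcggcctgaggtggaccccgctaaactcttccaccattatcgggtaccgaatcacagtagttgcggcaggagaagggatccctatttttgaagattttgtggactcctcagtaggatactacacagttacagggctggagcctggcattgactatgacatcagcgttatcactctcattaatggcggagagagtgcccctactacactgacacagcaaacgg

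Full-length *Fn1* transcripts with extra domain A made up 61.0% of the TPM of all full-length *Fn1* transcripts in tumor 1 of mouse 1, against 4.17% and 5.26% in the other tumors of mouse 1 and 6.51%, 8.83% and 8.99% in those of mouse 2. For extra domain B the share was 27.2% in tumor 1 of mouse 1, against 0.710% and 0.736% in the other tumors of mouse 1 and 0.995%, 0.581% and 0.204% in the tumors of mouse 2. The other 5 tumors thus held mainly forms without the domains, which are the forms that hepatocytes are known to secrete into plasma. Full-length transcripts came to 30.3 TPM in tumor 1 of mouse 1, against 105 to 194 TPM elsewhere, so that transcripts with domain A were at 18.5 TPM there, against 7.68 to 11.2 TPM. These shares rest on transcript assignment of reads, and the full-length transcripts in the tables are up to 98 bases shorter than in the annotation.

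Collagen XVIII, the precursor of endostatin, has a second start inside the gene (chromosome 10, 77052178 to 77166530 on GRCm38), and hepatocytes are known to use that internal start. The 250 bases before the upstream and the internal start are shown because the 2 groups of transcripts differed between tumors. They are on the minus strand, from RefSeq start windows of GRCm38.p6 at chr10:77166531-77166780 and chr10:77113706-77113955, and capitals mark GGGCGG or CCAAT on either strand.

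Upstream start: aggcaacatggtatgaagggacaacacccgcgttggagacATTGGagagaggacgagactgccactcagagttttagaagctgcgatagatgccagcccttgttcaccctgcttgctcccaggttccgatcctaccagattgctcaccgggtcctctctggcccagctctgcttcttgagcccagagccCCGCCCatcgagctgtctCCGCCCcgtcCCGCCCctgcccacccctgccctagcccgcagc
Internal start: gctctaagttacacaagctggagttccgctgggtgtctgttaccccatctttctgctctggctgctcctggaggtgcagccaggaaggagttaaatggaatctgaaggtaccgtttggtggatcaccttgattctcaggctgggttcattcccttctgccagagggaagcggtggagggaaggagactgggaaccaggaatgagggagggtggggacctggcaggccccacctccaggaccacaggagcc

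The upstream window held 3 matches to GGGCGG and 1 to CCAAT, and the internal window held neither. Of 32851 windows of the same length, 32.74% held GGGCGG and 33.85% held CCAAT on either strand. Neither window held TATAAA, present in 12.37% of all windows, or CTTTGAT, a form of the site of β-catenin partners of the TCF family, present in 3.205%. A match is a run of letters and not evidence of binding.

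Transcripts from the internal start were at 3.72 TPM in tumor 1 of mouse 1, against 128 and 129 TPM in the others of mouse 1 and 83.5, 80.5 and 57.7 TPM in mouse 2. Transcripts from the upstream start were at 60.1 TPM in tumor 1 of mouse 1, against 71.9 and 68.8 TPM in the others of mouse 1 and 63.0, 55.1 and 44.1 TPM in mouse 2. The upstream share was therefore 94.2% in tumor 1 of mouse 1, against 34.7% to 43.3% in the other 5. The low *Col18a1* total of tumor 1 of mouse 1, 84.7 TPM against 106 to 212 TPM, lay in the internal-start transcripts, while the upstream ones were within the range of the others. Of the internal-start transcripts, the main one is 838 bases shorter in the tables than in the annotation.

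**Figure D2:**
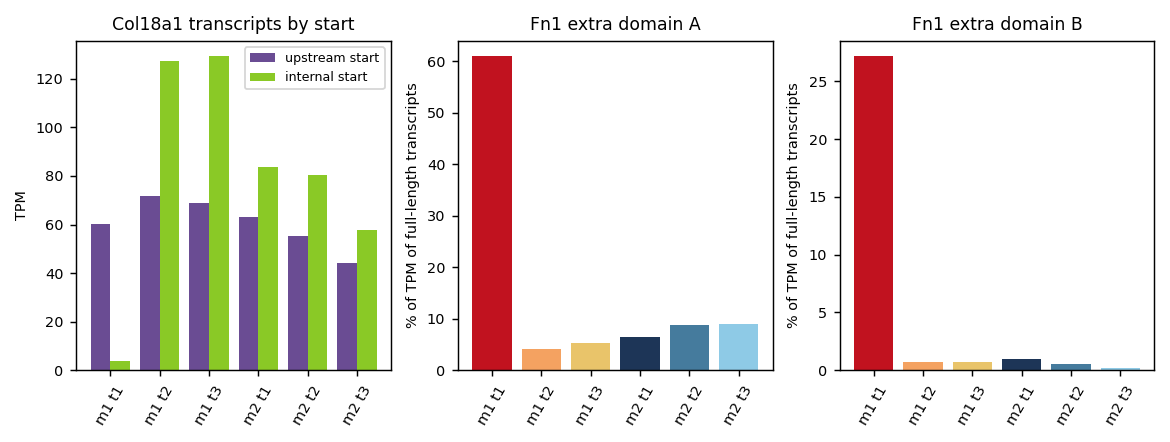
Transcript forms in the 6 tumors (m, mouse; t, tumor). Left, TPM of *Col18a1* transcripts from the upstream and the internal start; middle and right, percent of the TPM of full-length *Fn1* transcripts that hold extra domain A or B. Tumor 1 of mouse 1 has 3.72 TPM from the internal start of *Col18a1* and the domain shares 61.0% and 27.2%; the vertical scales of the panels differ.

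The 5 fibrillar collagens of the list were expressed at low levels in all 6 tumors. *Col1a1* and *Col1a2*, the chains of collagen I, which is the main component of scar, were at 1.67, 3.23 and 3.22 TPM and at 1.89, 3.84 and 3.64 TPM in tumors 1, 2 and 3 of mouse 1, against 0.725, 2.12 and 0.890 TPM and 1.01, 2.80 and 1.24 TPM in mouse 2. *Col3a1*, which codes for the reticular collagen laid down early in scars, was at 3.02, 12.2 and 7.76 TPM in mouse 1, against 3.5, 6.27 and 2.70 TPM in mouse 2. In TPM, tumor 1 of mouse 1 thus lay inside the range of mouse 2 for all 3 genes. For *Col3a1* this rests on transcript assignment of reads, since its estimated counts were 160 there, against 267, 624 and 274 in mouse 2. Its leading transcript held 51.3% of the TPM in tumor 1 of mouse 1, against 65.5%, 100% and 100% in mouse 2.

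The ratio of *Col1a1* to *Col1a2* stayed between 0.716 and 0.885 in the 6 tumors, while either gene alone varied over 3.81-fold to 4.46-fold among the 5 tumors other than tumor 1 of mouse 1. The 2 genes sit on different chromosomes, and their products join in 1 molecule. *Col5a1*, whose product nucleates collagen I fibrils, was the only one of these 5 collagens that was highest in tumor 1 of mouse 1, with 1.80, 0.934 and 0.852 TPM in mouse 1 against 0.254, 0.584 and 0.294 TPM in mouse 2. Its partner *Col5a2* was at 0.527, 0.950 and 1.05 TPM in mouse 1, against 0.759, 0.690 and 0.338 TPM in mouse 2.

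Of the 7 basement membrane genes of the list, the 4 collagens were not highest in tumor 1 of mouse 1 and the 3 laminin chains were. *Col4a1* was at 21.2, 43.9 and 46.7 TPM in mouse 1, against 20.5, 26.9 and 27.9 TPM in mouse 2. *Col4a2* was at 7.86, 13.6 and 14.4 TPM in mouse 1, against 9.38, 10.6 and 9.55 TPM in mouse 2. These genes code for the chains of the collagen IV network, and they lie head to head on chromosome 8, where *Col4a1*, on the minus strand, reaches to 11312889 and *Col4a2*, on the plus strand, begins at 11312805 on GRCm38.

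The ratio of the main coding transcript of *Col4a1* to that of *Col4a2* was between 1.58 and 1.79 in every tumor, tumor 1 of mouse 1 included. *Col15a1*, whose product links basement membranes to the matrix beneath, was at 1.40, 3.00 and 3.03 TPM in mouse 1, against 2.17, 4.13 and 0.803 TPM in mouse 2, and those ranges overlapped.

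*Lamb1* (chromosome 12, 31265146 to 31329644), the β1 chain of laminin, was at 80.1, 4.09 and 3.72 TPM in mouse 1, against 0.486, 0.759 and 0.321 TPM in mouse 2. *Lamc1*, the γ1 chain, was at 51.8, 6.35 and 6.70 TPM in mouse 1, against 4.22, 6.27 and 3.09 TPM in mouse 2. *Lama2*, the α2 chain found in muscle and stroma, was at 8.82, 3.05 and 2.63 TPM in mouse 1, against 0.196, 1.60 and 0.0792 TPM in mouse 2. All 3 chains were highest in tumor 1 of mouse 1, and *Lamb1* and *Lamc1* were 19.6-fold and 7.74-fold above the highest of the other 5 there. The 2 chains assemble in 1 trimer, yet the *Lamb1* to *Lamc1* ratio was 1.55 in tumor 1 of mouse 1, 0.643 and 0.555 in the others of mouse 1, and 0.104 to 0.121 in mouse 2.

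Of 16 other laminin and basement membrane genes, 8 averaged 1 TPM or more, 1 of them only through tumor 1 of mouse 1. Of the 8, 6 (75%) were highest in that tumor, beside 62.6% of all genes at that level, and 3 (37.5%) were at least 4-fold above every other tumor, beside 19.1%. Counting only genes that averaged 1 TPM or more in the other 5 tumors, 2 of 7 were 4-fold above, beside 11.4%. Nidogen 1 (*Nid1*), which ties laminin to collagen IV, was at 135 TPM in tumor 1 of mouse 1, against 4.62 to 17.8 TPM elsewhere. Agrin (*Agrn*), a proteoglycan of basement membranes, was at 58.6 TPM there, against 5.41 to 9.07 TPM.

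The chains of beaded-filament collagen VI and the fibril-associated *Col14a1* had none of their highest values in tumor 1 of mouse 1. *Col14a1* was at 1.19, 12.1 and 12.7 TPM in mouse 1, against 3.16, 8.85 and 1.84 TPM in mouse 2, and was lowest in TPM in tumor 1 of mouse 1. Its estimated counts were 98 there but 68 in tumor 3 of mouse 2, so the order of these tumors rests on transcript assignment of reads. A transcript of 2085 bases held 35.6% of the TPM in tumor 1 of mouse 1 and 97.9% in tumor 3 of mouse 2. *Col6a1* was at 1.87, 2.23 and 1.95 TPM in mouse 1, against 0.626, 1.48 and 0.166 TPM in mouse 2. *Col6a2* was at 0.676, 1.35 and 1.66 TPM in mouse 1, against 0.232, 1.16 and 0.131 TPM in mouse 2. For both genes tumor 2 of mouse 2 stood next to mouse 1 and apart from its 2 neighbors. *Col6a3*, at 0.193 to 2.78 TPM over the 6 tumors, was carried in 4 of the 6 tumors mainly by a retained-intron transcript of 646 bases, so its level as a coding gene is uncertain.

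Some of the 26 other collagen genes were far higher in tumor 1 of mouse 1, among them genes nearly silent elsewhere, and 6 of the 11 averaging 1 TPM or more did so only through that tumor. Of the 11, 9 (81.8%) were highest there, beside 62.6% of all genes, and 8 (72.7%) were at least 4-fold above every other tumor, beside 19.1%. Counting only genes that averaged 1 TPM or more in the other 5 tumors, 2 of 5 were 4-fold above, beside 11.4%. *Col23a1*, a transmembrane collagen, was at 101 TPM there, against 0.00898 to 3.30 TPM. *Col7a1*, which forms the anchoring fibrils of skin, was at 51.8 TPM, against 0 to 0.760 TPM. *Col9a2* and *Col11a1*, known from cartilage, were at 30.5 and 10.9 TPM, against at most 0.462 and 0.182 TPM.

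Proteoglycans and glycoproteins included both genes far higher and genes lower in tumor 1 of mouse 1 than in the other 5 tumors. *Vcan* (chromosome 13, 89655309 to 89743027), which codes for the large hyaluronan-binding proteoglycan versican, was at 35.0, 0.656 and 0.872 TPM in mouse 1, against 0.179, 0.0145 and 0.0211 TPM in mouse 2. The mouse 2 values stand for 5, 3 and 3 estimated counts. In tumor 1 of mouse 1 the level was 40.1-fold above the highest of the other 5. It was divided between the V0 and V1 forms, which carry the long chondroitin sulfate region, at 15.9 and 16.2 TPM. The V2 and V3 forms were listed at 0 in all 6 tumors. These forms are 186 to 2195 bases shorter in the deposited data than in the annotation, and their split rests on transcript assignment of reads. *Fbn1*, which codes for the microfibril protein fibrillin 1, was at 12.3, 0.788 and 0.801 TPM in mouse 1, against 0.140, 0.241 and 0.177 TPM in mouse 2.

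*Bgn*, which codes for the small proteoglycan biglycan, was at 96.2, 46 and 46.7 TPM in mouse 1, against 12.5, 26.6 and 13.5 TPM in mouse 2. *Sparc*, which codes for a collagen-binding glycoprotein, was at 150 TPM in tumor 1 of mouse 1, with 53.1 and 48.8 TPM in tumors 2 and 3, against 24, 35.7 and 30.6 TPM in mouse 2. For both genes every tumor of mouse 1 was above every tumor of mouse 2. Among all genes averaging 1 TPM or more, tumors 2 and 3 of mouse 1 were both above mouse 2 in 57.4%. The share with every tumor of mouse 1 above was not counted. *Eln*, the elastin gene, was at 9.02, 1.21 and 1.93 TPM in mouse 1, against 3.33, 1.86 and 0.355 TPM in mouse 2, with overlap between the mice.

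*Fn1*, the gene of the list with the highest mean over the 6 tumors, was at 55.2, 242 and 237 TPM in mouse 1, against 186, 174 and 201 TPM in mouse 2, and was lowest in tumor 1 of mouse 1. *Dcn*, which codes for decorin, a small proteoglycan that binds collagen I and TGF-beta, was at 19.1, 46.6 and 52.2 TPM in mouse 1, against 11.4, 48.9 and 13 TPM in mouse 2. *Lum*, coding for the related lumican, was at 1.60, 3.34 and 3.78 TPM in mouse 1, against 0.579, 3.86 and 0.894 TPM in mouse 2. *Postn*, which codes for the fibroblast glycoprotein periostin, was at 1.24, 4.74 and 4.01 TPM in mouse 1, against 0.919, 2.53 and 0.982 TPM in mouse 2. In *Dcn*, *Lum* and *Postn*, tumor 1 of mouse 1 lay with tumors 1 and 3 of mouse 2, and the other 3 tumors were higher.

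Of 39 other proteoglycan, glycoprotein and elastic fiber genes, 25 averaged 1 TPM or more, 6 of them only through tumor 1 of mouse 1. Of the 25, 16 (64%) were highest in that tumor, beside 62.6% of all genes, and 11 (44%) were at least 4-fold above every other tumor, beside 19.1%. Counting only genes that averaged 1 TPM or more in the other 5 tumors, 5 of 19 were 4-fold above, beside 11.4%. Vitronectin (*Vtn*), a plasma glycoprotein of hepatocytes, was at 33.6 TPM there, against 783 to 1242 TPM elsewhere, while the microfibril-associated *Mfap2* was at 85.5 TPM, against 0 to 2.14 TPM. Latent TGF-beta binding protein 1 (*Ltbp1*) was at 122 TPM, against 0.159 to 3.39 TPM.

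Stellate cell and myofibroblast genes did not move together. *Acta2*, which codes for smooth muscle actin, the usual sign of an activated stellate cell, was at 50.05, 4.56 and 4.31 TPM in mouse 1, against 1.29, 1.97 and 2.01 TPM in mouse 2. *Pdgfra*, a PDGF receptor gene of fibroblasts, was at 17.1, 1.13 and 1.23 TPM in mouse 1, against 0.0764, 0.401 and 0.126 TPM in mouse 2. *Pdgfrb*, the PDGF receptor gene most used to mark stellate cells, was only 1.54-fold above the highest other tumor in tumor 1 of mouse 1, with 2.52, 1.53 and 1.63 TPM in mouse 1 against 0.319, 1.27 and 0.450 TPM in mouse 2.

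*Tagln*, another contractile gene, did not separate any tumor, with 7.28, 5.23 and 9.15 TPM in mouse 1 against 4.42, 7 and 9.19 TPM in mouse 2. *Lrat*, the enzyme that esterifies retinol in quiescent stellate cells, was at 0.0964, 1.36 and 1.10 TPM in mouse 1, against 0.281, 1.20 and 0.190 TPM in mouse 2, and was lowest in tumor 1 of mouse 1, on 8 estimated counts. *Des*, which codes for the intermediate filament protein desmin, was at 0.512, 1.21 and 1.03 TPM in mouse 1, against 0.358, 0.866 and 0.472 TPM in mouse 2. *Reln*, a stellate cell gene of the healthy liver, was at 12.2, 12.1 and 13.8 TPM in mouse 1, against 5.41, 6.76 and 6.12 TPM in mouse 2, but its leading transcript is 891 bases long without a defined coding sequence and coding transcripts held as little as 29.6% of the total.

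Of 17 stellate cell markers, 13 averaged 1 TPM or more. In tumor 1 of mouse 1, 5 of the 13 were highest, beside 62.6% of all genes at that level, and 2 were lowest. The summed level of the 17 was 290 TPM there, against 29.2 to 101 TPM elsewhere. *Cygb* and *Ngfr* led this excess, with 191 and 37.7 TPM in tumor 1 of mouse 1, against 0.540 to 9.44 TPM and 0.0272 to 1.69 TPM elsewhere, while *Colec11* was at 3.36 TPM there, against 4.97 to 26.3 TPM. The defining smooth muscle markers *Myh11* and *Cnn1* were at most 0.433 and 0.0545 TPM in any tumor, although the 8 smooth muscle markers summed to 103 TPM in tumor 1 of mouse 1, against 9.62 to 21.2 TPM, through *Mylk* (53.9 TPM) and *Smtn* (47.9 TPM). The 11 portal fibroblast markers summed to 51.4 TPM, against 10.6 to 35.7 TPM, through *Mfap4* (30.5 TPM). Of the 7 of them averaging 1 TPM or more, 3 were highest in tumor 1 of mouse 1 and 2 lowest. The lowest were *Entpd2*, at 0.287 TPM against 4.92 to 23.9 TPM, and *Dpt*, at 0.0800 TPM against 0.672 to 2.47 TPM. Cholangiocyte markers summed to 45.4 TPM, against 4.98 to 44.4 TPM, mainly through *Spp1* (33.0 TPM, against 1.40 to 30.4 TPM). The 7 mesothelial markers summed to 5.45 TPM, against 0.634 to 2.23 TPM, through *Krt19* (5.10 TPM, against at most 1.83 TPM), which also marks cholangiocytes, while *Msln* and *Upk3b* were at most 0.0892 and 0.0515 TPM. Markers of other cell types moved with tumor 1 of mouse 1 as well. All 8 of the macrophage markers, 8 of the 11 endothelial markers and all 8 of the hepatocyte markers averaging 1 TPM or more were lowest there. At least 4-fold below every other tumor were 2 macrophage, 4 endothelial and 8 hepatocyte markers, beside 10.1% of all genes at that level. The share of all genes lowest there was not counted. Summed macrophage markers were 62.6 TPM, against 153 to 587 TPM, summed endothelial markers were 20.3 TPM, against 53.0 to 112 TPM, and summed hepatocyte markers were 1285 TPM, against 22057 to 40994 TPM. The part of cell makeup in the matrix gene levels was not tested.

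All 5 protease and inhibitor genes were highest in tumor 1 of mouse 1, beside 58.9% of all genes detected in any tumor. Their summed level was 371 TPM there, against 14.9 to 44.4 TPM elsewhere. *Mmp2*, which codes for a gelatinase that digests denatured collagen and collagen IV, was at 72.6, 2.99 and 2.24 TPM in mouse 1, against 0.144, 0.864 and 0.532 TPM in mouse 2. *Timp2*, whose product inhibits MMP2 and also serves its activation by MMP14, was at 159, 10.1 and 11.0 TPM in mouse 1, against 2.17, 4.04 and 3.30 TPM in mouse 2. *Timp3*, coding for the matrix-bound inhibitor, was at 98.4, 13.7 and 13.5 TPM in mouse 1, against 5.46, 9.03 and 4.74 TPM in mouse 2. For these 3 genes all tumors of mouse 1 lay above all tumors of mouse 2, with tumor 1 of mouse 1 24.3-fold, 14.4-fold and 7.19-fold above the next. Of all genes averaging 1 TPM or more, 57.4% had tumors 2 and 3 of mouse 1 both above all of mouse 2. The share with every tumor of mouse 1 above was not counted.

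*Mmp14*, which codes for the membrane-bound activator of MMP2, was at 37.9, 17.0 and 16.8 TPM in mouse 1, against 6.64, 7.28 and 10.3 TPM in mouse 2. *Timp1*, the inhibitor gene most linked to liver fibrosis, was at 2.97, 0.571 and 0.314 TPM in mouse 1, against 0.456, 1.10 and 0.180 TPM in mouse 2, with overlap between the mice. Of 23 other protease and inhibitor genes, 11 averaged 1 TPM or more, 4 of them only through tumor 1 of mouse 1. Of the 11, 6 (54.5%) were highest in that tumor, beside 62.6% of all genes, and 4 (36.4%) were at least 4-fold above every other tumor, beside 19.1%. Counting only genes that averaged 1 TPM or more in the other 5 tumors, 0 of 7 were 4-fold above, beside 11.4%. The lowest value was in that tumor for 4 of the 11, and the share of all genes lowest there was not counted. *Mmp11* was at 17.4 TPM there, against 0.177 to 1.46 TPM, whereas *Mmp19* was at 3.11 TPM, against 19.7 to 34.8 TPM.

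Crosslinking oxidases were scarce, but in TPM they and *Tgfb1* were also highest in tumor 1 of mouse 1, as were 58.9% of all genes detected in any tumor. *Lox*, the founding lysyl oxidase gene, was at 0.243, 0.177 and 0.152 TPM in mouse 1, against 0.0347, 0.104 and 0.0254 TPM in mouse 2. These values stand for only 18, 14 and 14 estimated counts in mouse 1 and 3, 8 and 2 in mouse 2. *Loxl1*, which acts on elastin, was at 1.15, 0.545 and 0.540 TPM in mouse 1, against 0.0258, 0.245 and 0.169 TPM in mouse 2. *Loxl2*, which acts on collagen IV, was at 4.53, 1.40 and 1.94 TPM in mouse 1, against 0.371, 1.03 and 0.515 TPM in mouse 2. *Tgfb1* was at 23.9, 10.9 and 11.6 TPM in mouse 1, against 4.01, 5.60 and 3.62 TPM in mouse 2. In each of these 4 genes every tumor of mouse 1 was above every tumor of mouse 2. Tumors 2 and 3 of mouse 1 were both above all of mouse 2 for 57.4% of all genes averaging 1 TPM or more. The share with every tumor of mouse 1 above was not counted. Of 4 other crosslinking genes, 2 averaged 1 TPM or more: *Pxdn*, which acts on collagen IV, was at 22.5 TPM in tumor 1 of mouse 1, against 0.637 to 2.41 TPM, and *Tgm2*, a transglutaminase gene, was at 119 TPM, against 83.6 to 122 TPM.

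Of 20 other TGF-beta and PDGF signaling genes, 17 averaged 1 TPM or more, 1 of them only through tumor 1 of mouse 1. Of the 17, 13 (76.5%) were highest in that tumor, beside 62.6% of all genes, and 4 (23.5%) were at least 4-fold above every other tumor, beside 19.1%. Counting only genes that averaged 1 TPM or more in the other 5 tumors, 3 of 16 were 4-fold above, beside 11.4%. The ligand gene *Tgfb3* was at 17.0 TPM there, against 0.315 to 1.11 TPM. The receptor gene *Tgfbr2* was at 8.20 TPM, against 10.004 to 30.7 TPM.

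Some genes for folding and hydroxylating collagen chains were far higher in tumor 1 of mouse 1. Of 20 averaging 1 TPM or more, 13 (65%) were highest there, beside 62.6% of all genes. The lowest value was there for 3, and the share of all genes lowest there was not counted. Of the 20, 6 reached that level only through that tumor. At least 4-fold above every other tumor were 9 (45%) of the 20, beside 19.1% of all genes. Counting only genes that averaged 1 TPM or more in the other 5 tumors, 3 of 14 were 4-fold above, beside 11.4%. *Serpinh1*, which codes for the collagen chaperone HSP47, was at 425 TPM there, against 2.88 to 16.7 TPM elsewhere, and its ratio to *Col1a1* was 254, against 2.44 to 5.18. *Plod2*, coding for a lysyl hydroxylase, was at 56.2 TPM, against 0.151 to 1.12 TPM, and *P3h4*, coding for a partner of the hydroxylases, was at 55.2 TPM, against 0.135 to 1.46 TPM. *P4hb*, a subunit of prolyl hydroxylase that also folds other secreted proteins, was lower, with 398 TPM, against 448 to 611 TPM.

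Counted over the 33 genes averaging 1 TPM or more, 17 (51.5%) were highest in tumor 1 of mouse 1, beside 62.6% of all 12518 genes at that level. At least 4-fold above every other tumor were 9 (27.3%), beside 19.1% of all genes, and at least 4-fold below were 0, beside 10.1%. *Vcan*, *Fbn1* and *Pdgfra*, 3 of the 9, reached the minimum only through tumor 1 of mouse 1. With the minimum set on the other 5 tumors, 14 (46.7%) of 30 genes were highest, beside 58.1% of 11324, and 6 (20%) were at least 4-fold above, beside 11.4%. In TMM-scaled CPM (library-size scaled counts, with library sizes corrected by the trimmed mean of M values), 15 (45.5%) of the 33 were highest, beside 39.9%, and over all 41 genes 9 (22.0%) were at least 4-fold above, beside 25.03%. The side of the background on which the list lay thus changed with scaling and minimum, and nothing is read from these shares about the list. The median log2 ratio of tumor 1 of mouse 1 to the median of the other 5 was 0.76 over the 33 genes and 0.89 over all genes, on the log2(TPM + 1) scale, which understates the change of low genes. A single tumor has no replicate, and these counts carry no test.

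**Figure D3:**
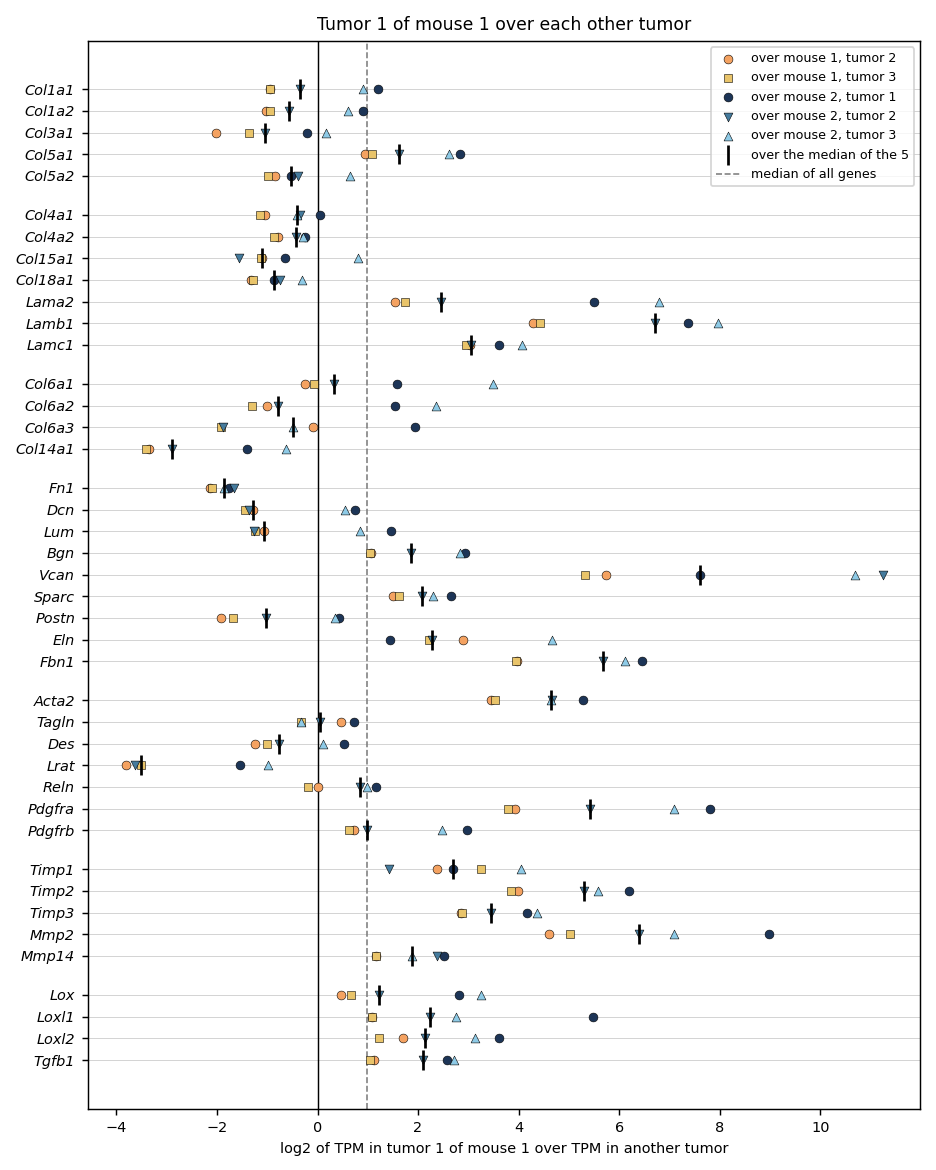
Log2 of the TPM in tumor 1 of mouse 1 over the TPM in each of the other 5 tumors (symbols) and over their median (black tick), with 1 row per gene. The dashed line marks the median of all genes, 0.98; *Vcan*, *Lamb1*, *Mmp2*, *Fbn1*, *Pdgfra* and *Timp2* lie far to its right for every tumor, and *Lrat*, *Col14a1* and *Fn1* lie left of 0 for every tumor.

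Because the typical gene was higher in tumor 1 of mouse 1, directions near 0 depended on the scaling. The median log2 ratio of all genes was 0.98 in TPM and -0.10 in TMM-scaled CPM. *Col6a1* (0.34), *Reln* (0.85) and *Pdgfrb* (0.99) were above the median of the other 5 in TPM and below it in TMM-scaled CPM, and *Tagln* (0.06) was below it in each of the other 4 scalings tried. The other 37 genes kept their direction in all of them, but in TMM-scaled CPM 25 of the 41 moved by more than the spread among the other 5 tumors. *Col18a1* was at -0.86 in TPM and -2.41 in TMM-scaled CPM, and *Mmp14* at 1.88 and 0.43.

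The tumors of mouse 1 were then compared with those of mouse 2 by edgeR's quasi-likelihood test on rounded gene counts. With all 6 tumors, 0 of 40 tested genes of the list passed an adjusted p of 0.05, and 0 of 13268 genes did (0%). *Timp1* was not tested because of its low counts. At an unadjusted p under 0.05 were 12 of the 40, beside 10.9% of all genes tested. This count was 5, beside 6.03%, with tumor number as a block, 3, beside 5.34%, by limma-voom, and 12, beside 20%, without tumor 1 of mouse 1. The log2 fold change was above 0 in 32 of the 40, and in 35 without that tumor. With 6 tumors it had a median of 0.65, beside a median of 0.04 over all genes. *Vcan* had the largest log2 fold change, 8.07 (SE 1.86, edgeR adjusted p = 0.412), and *Fn1* the smallest, -0.53 (SE 0.84, edgeR adjusted p = 0.829). DESeq2 passed 1 gene of the list, *Tgfb1*, with 202 of all genes, but gave no adjusted p for 6 of the list, *Vcan*, *Lamb1*, *Fbn1*, *Pdgfra*, *Timp2* and *Mmp2*, and limma-voom passed 0, with 0 of all genes and 708 at an unadjusted p under 0.05.

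Without tumor 1 of mouse 1, 2 of 40 tested genes of the list passed, both higher in mouse 1, beside 1.26% of 13374 genes. *Vcan* had a log2 fold change of 4.71 (SE 0.38, edgeR adjusted p = 0.0219) and *Lamb1* one of 2.40 (SE 0.28, edgeR adjusted p = 0.0333), and both genes were higher in each of the 2 tumors of mouse 1 than in all 3 of mouse 2. From the summed estimated counts, scaled to equal library totals, 291 of *Vcan* in the 2 tumors of mouse 1 and 11 in the 3 of mouse 2, the ratio was 32.3 with a 95% exact binomial interval of 17.8 to 65.4, which covers counting error only. The median log2 fold change of the list was 0.73, and that of all genes tested was -0.01. DESeq2 and limma-voom passed 8 and 4 genes of the list in these 5 tumors, all higher in mouse 1 and among them *Vcan*, *Lamb1*, *Fbn1* and *Timp2* by both.

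Both calls rested on counting tumors 2 and 3 of mouse 1 as separate samples. With their mean as 1 sample, log2 fold changes of 4.73 for *Vcan* and 2.40 for *Lamb1* had edgeR adjusted p of 0.273 and 0.420, and 1 of 13741 genes passed. In addition, 137 genes that reached 20 TPM in tumor 1 of mouse 1 but no more than 0.2% of that level in any tumor of mouse 2 stood in tumors 2 and 3 of mouse 1 at a median of 1.83% and 1.87% of their level in tumor 1 (quartiles 1.45% to 2.31% and 1.43% to 2.58%). *Vcan* stood at 1.88% and 2.49%, and *Lamb1* at 5.10% and 4.65%. The part of this common share in the 2 calls was not tested.

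Of 116 tested genes of the other matrix lists, 5 passed without tumor 1 of mouse 1, beside 1.26% of all genes, and are named here after their values were seen. None of the 5 passed with tumors 2 and 3 of mouse 1 averaged (edgeR adjusted p of 0.299 to 0.585). *Ltbp1* (log2 fold change 3.54, SE 0.34, edgeR adjusted p = 0.0219), *Fkbp10* (3.16, SE 0.40, edgeR adjusted p = 0.0403) and *Thbs2* (2.36, SE 0.32, edgeR adjusted p = 0.0444) were higher in mouse 1. *Fbn2* was too, with 0.645 and 0.681 TPM in tumors 2 and 3 of mouse 1 against 0, 0 and 0.00442 TPM in mouse 2 (edgeR adjusted p = 0.0219). *Col27a1* was lower in mouse 1 (-1.73, SE 0.23, edgeR adjusted p = 0.0410). The 4 higher genes stood in tumors 2 and 3 of mouse 1 at 2.68% to 4.07% of their level in tumor 1.

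**Figure D4:**
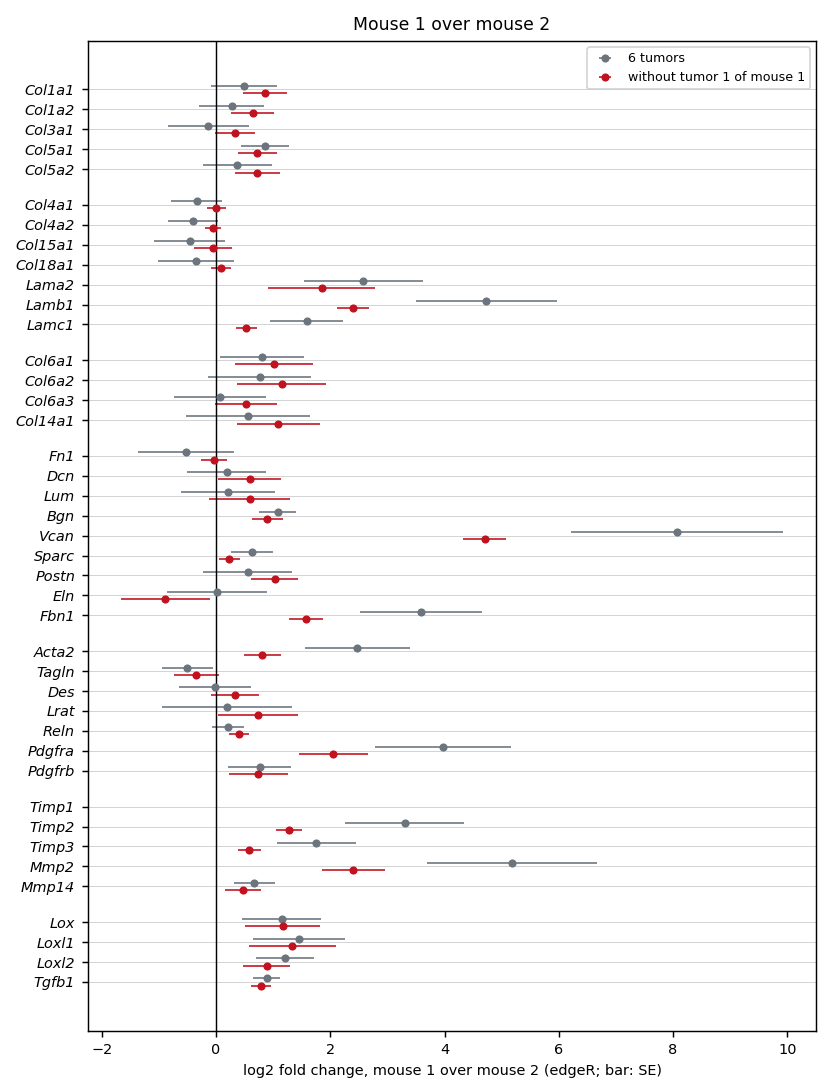
Log2 fold change of mouse 1 over mouse 2 with its SE from edgeR, for the 40 genes tested, with all 6 tumors (gray) and without tumor 1 of mouse 1 (red). *Vcan* and *Lamb1* are at 8.07 and 4.73 with 6 tumors and at 4.71 and 2.40 without tumor 1 of mouse 1, and most genes lie right of 0 in both.

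Within the 5 tumors, the stroma genes followed a pattern noticed after their values were seen. Tumors 2 and 3 of mouse 1 were both above all 3 tumors of mouse 2 for 27 (81.8%) of the 33 genes, beside 57.4% of all genes. Tumor 2 of mouse 2 was at least 2-fold above both other tumors of mouse 2 for 11 (33.3%) of the 33, beside 8.19% of all genes. The 11 were *Col1a1*, *Col1a2*, *Lama2*, *Col6a1*, *Col6a3*, *Col14a1*, *Dcn*, *Lum*, *Postn*, *Pdgfra* and *Pdgfrb*, and the excess over the next tumor of mouse 2 ran from 2.25-fold to 8.18-fold. The minimum of 1 TPM was a mean that includes tumor 1 of mouse 1, and *Pdgfra* reached it only through that tumor. Its excess rested on 47 estimated counts, against 10 and 15, and that of *Lama2* on 113, against 17 and 8.

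Other cell types moved in the same tumors. The stellate cell marker *Colec11* was at 23.2 TPM in tumor 2 of mouse 2, against 6.72 and 4.97 TPM in tumors 1 and 3, and the macrophage gene *C1qa* at 119 TPM, against 53.6 and 37.4 TPM. Summed macrophage markers were 483 TPM in tumor 2 of mouse 2, against 232 and 153 TPM, and summed cholangiocyte markers were 26.2 TPM, against 5.57 and 4.98 TPM. Summed endothelial markers did not move this way, with 53.0 TPM in tumor 2 of mouse 2, against 62.3 and 59.2 TPM. The mitochondrial share of counts ran in the opposite direction to the stroma genes. It was 8.38% and 8.30% in tumors 2 and 3 of mouse 1 and 12.9% in tumor 2 of mouse 2. In tumors 1 and 3 of mouse 2, where the stroma genes were low, it was higher, at 18.4% and 16.05%. The part of these markers and of this share in the levels of the matrix genes was not tested.

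**Figure D5:**
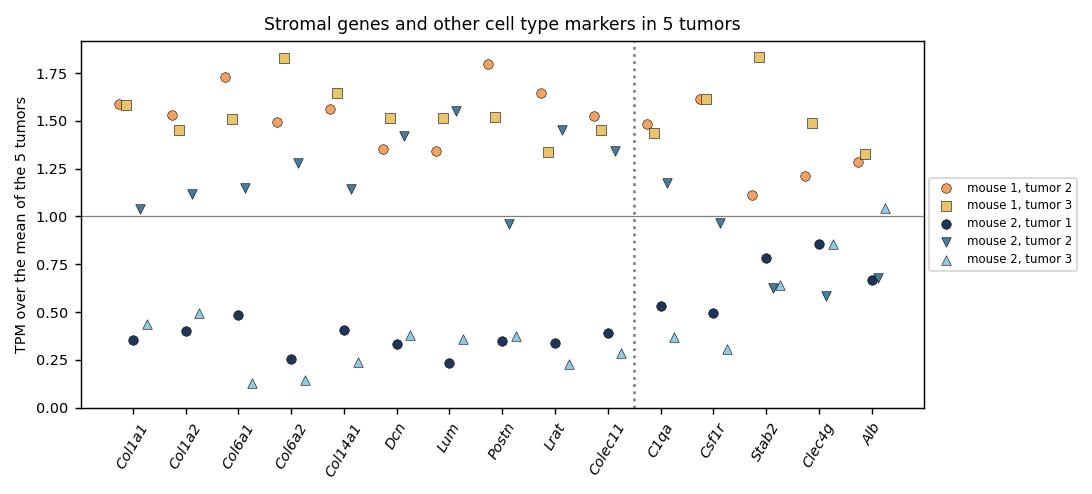
TPM of 10 stroma genes and, right of the dotted line, 5 markers of other cell types in each tumor other than tumor 1 of mouse 1, divided by the mean of the 5 tumors; the genes were picked after their values were seen. Tumor 2 of mouse 2 lies with mouse 1 for *Dcn*, *Lum*, *Lrat* and *Colec11* and above its 2 neighbors for *C1qa* and *Csf1r*, but not for *Stab2*, *Clec4g* or *Alb*.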

How the data were processed

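RNA from 6 excised tumors was sequenced as poly A enriched mRNA libraries. The expected counts and the TPM of each Ensembl transcript were deposited by the authors in the layout of Salmon; counts were not normalized, and TPM were scaled for effective length and depth. In the submitters' processing notes the build is GRCm38 and BWA and Picard are named; which transcript index was used is not given in the sources used for this work. Transcript lengths in the tables were used only to match forms.

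Of the transcripts, 114813 matched the GENCODE vM39 annotation (built on GRCm39, used for names and exon sequences) and 1733, with 0.373% to 0.680% of counts, did not and were left out. Counts and TPM were summed per gene; *Tf* was not found among the hepatocyte markers. RefSeq gave GRCm38.p6 positions for the 41 genes and start windows for 27 of them.

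The members and lists were chosen with earlier results of these data known. The naming rule covers all 41 genes in TPM; test values for genes passing with or without tumor 1 of mouse 1 and for the largest and smallest log2 fold change; and, of each other list, the 3 genes of highest mean TPM and the 3 of largest excess in tumor 1 of mouse 1, and cell markers near 0. Transcript forms, ratios, common shares and the order within 5 tumors were chosen after values were seen.

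Tests used edgeR 4.0.16 (TMM, filterByExpr, quasi-likelihood, two-sided, Benjamini-Hochberg) on rounded counts, and DESeq2 1.42.0 and limma 3.58.1 as alternatives, run in R 4.3.3; tables and plots used Python 3.11.15 with pandas 2.3.3 and numpy 2.4.6, and matplotlib 3.10.9 with scipy 1.17.1. Other alternatives were scaling, filter, pseudocount, coding transcripts alone, a block for tumor number and omission of single tumors. The scripts were tested on simulated data. The p-values measure the spread between tumors of 1 animal.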

Additional observations from a re-analysis of the deposited data

Results flagged for a closer look

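For 10 of the 41 genes, tumor 1 of mouse 1 lay apart from the other 5 tumors by a gap that passed Dixon's limit for 6 values, as a share of the whole range on the log2(TPM + 1) scale, which chance passes in about 1 in 20 sets. All 10 averaged 1 TPM or more, 30.3% of the 33 genes at that level, beside 37.6% of all genes with such a gap, so the count is not a result about the list. It was the highest tumor for 9 genes, with 80.1 TPM of *Lamb1*, 51.8 TPM of *Lamc1*, 35.0 TPM of *Vcan*, 12.3 TPM of *Fbn1*, 50.05 TPM of *Acta2*, 17.1 TPM of *Pdgfra*, 159 TPM of *Timp2*, 98.4 TPM of *Timp3* and 72.6 TPM of *Mmp2*. It was the lowest tumor for 1, with 55.2 TPM of *Fn1*. No other tumor was set apart in this way for any of the 41 genes.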

How the results depend on the processing

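With 6 tumors, 0 genes passed between the mice, also with limma-voom, other scalings, no filter or tumor number as a replicate block (0 genes, 800 at an unadjusted p under 0.05); DESeq2 passed 202 genes, 1 of them in the list. Same-numbered tumors of the mice had deviations correlated at 0.02, -0.04 and 0.05, so the numbers do not pair the samples. Library size alone moved the median log2 fold change of all genes to 0.55 with 6 tumors and to 0.24 with 5. Leaving out single tumors gave 0 to 168 genes and 0 to 2 of the list, and only leaving out tumor 1 of mouse 1 gave any. Without that tumor, in fits chosen after seeing the data, DESeq2, limma-voom and library size alone passed 1369, 477 and 151 genes and 8, 4 and 2 of the list, and averaging tumors 2 and 3 of mouse 1 passed 1 gene and 0 of the list. The log2 fold change of *Fn1*, -0.53, reversed to 0.25 in 5 tumors with library size alone. At least 4-fold below every other tumor in tumor 1 of mouse 1 were 2 genes in TMM-scaled CPM, and 0 in the other scalings, with 1 TPM added, with all 41 genes or without single tumors; the counts of highest values (14 to 21) and 4-fold excess (6 to 10) stayed within 1.5 times the main ones, the lowest of each with the minimum set on the other 5 tumors, which was chosen after seeing the data. A count of 0 allows 3 counts; the mouse comparison rests on 2 animals.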
